A study of Mus musculus with 6 samples.

Results

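The genes of ileal bile acid uptake and of the FXR-FGF15 axis were examined in RNA of sorted ileal tuft cells, as a set of 9 genes among the 23420 of the table. They were chosen by name for their known roles, by a rule that used no measured value, though with earlier results of these data known. The set holds Slc10a2, Fabp6, Slc51a, Slc51b, Abcc2 and Abcc3 for transport and Nr1h4, Nr0b2 and Fgf15 for sensing and feedback. The 6 libraries form 1 group, each labelled as a mouse replicate with the genotype Gfi1b-eGFP and the strain C57BL/6 (C57BL/6J in the titles). The labels give no age, and the study's methods give 1 range for all of its mice. In these mice green fluorescent protein reports the Gfi1b locus, so the cells were defined by that reporter. The sort took live GFP+ cells that carried the epithelial marker EpCam and lacked the leukocyte marker CD45. No other cell population is compared here, so every comparison is between genes within a library. Values are RSEM estimates in transcripts per 1000000 (TPM), which are corrected for transcript length and scaled to the same total in every library. They keep no sequencing depth, and a gene at 0 is only listed at 0.

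Bile acids are made in the liver from cholesterol and reclaimed in the ileum. In ileal enterocytes, SLC10A2 takes them up across the apical membrane, FABP6 binds them in the cytosol, and the paired subunits SLC51A and SLC51B export them across the basolateral membrane. Within the cell they activate the nuclear receptor FXR, encoded by Nr1h4, which induces Fabp6, both Slc51 genes, the corepressor gene Nr0b2 (SHP) and Fgf15, a hormone that lowers hepatic bile acid synthesis. ABCC2 and ABCC3 export conjugated organic anions across the apical and the basolateral membrane. These genes are known chiefly from enterocytes, and tuft cells are not a cell type for which they are used as markers.

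The libraries held between 13044 and 13308 genes above 0. All 15 tuft cell markers were above 0 in every library, led by Trpm5, the taste transduction channel (1141 ± 211 TPM), the sialic acid receptor gene Siglecf, listed as Siglec5 (933.4 ± 259 TPM), and the signalling regulator Rgs13 (902.0 ± 165 TPM; SD, n = 6 each). The 18 enterocyte markers, led by Fabp1, Apoa1 and Fabp2, were present as well, with a sum of 6239 to 15438 TPM, while the sum of the tuft cell markers was 5087 to 8224 TPM. Of these enterocyte markers 17 were above 0 in every library. Slc2a2, the basolateral hexose carrier, was listed at 0 in replicates 1 to 3. Paneth cell markers (7 genes led by Defa24, Defa22 and Defa17) summed to 4089 to 26976 TPM and goblet cell markers (7 genes led by Zg16, Tff3 and Agr2) to 778 to 4318 TPM. Lower sums were found for stem cell markers (5 genes led by Olfm4, Lgr5 and Smoc2, 316.7 to 788 TPM), enteroendocrine markers (9 genes led by Sct, Gcg and Chgb, 379 to 536.5 TPM) and immune markers (6 genes led by Ptprc, Itgam and Cd3e, 102 to 196 TPM, with 5 of the 6 above 0 in every library). Single genes carried several of these sums, with Fabp1 at 58.9% to 84.7% of the enterocyte sum, Olfm4 at 74.2% to 85.2% of the stem cell sum, Sct at 73.7% to 97.3% of the enteroendocrine sum and Ptprc at 70.9% to 87.8% of the immune sum. The cell of origin of the bile acid genes was therefore not measured, and more cells of a type cannot be told apart from more RNA per cell. Replicates 1 to 3 and 4 to 6 differed in Gm20594, at 15588 to 21283 TPM in the former and 51804 to 56441 TPM in the latter. They also differed in Rn45s, the ribosomal RNA precursor, which took 23.1% to 25.1% of the TPM in the former and 26.7% to 32.6% in the latter. Because TPM share a fixed total, both lower the values of all other genes, to an extent that varied among libraries.

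The start of Fabp6 is shown first because this gene, an FXR target, was the most abundant of the set and its window held matches to the FXR site. Of the 9 genes, 7 had an entry in the RefSeq promoter table (GRCm38.p6), all but Fgf15 and Abcc3. The windows of 300 bases, 250 before to 50 after the start, were searched on both strands for 2 motifs, the FXR site, an AGGTCA followed after 1 free base by its reverse complement TGACCT, and the LRH-1 site TCAAGGTCA, which holds an AGGTCA within it. Capitals mark a match with up to 2 mismatches among the 12 fixed letters of the FXR site, the free base included in the run.
Fabp6, chr11:43601563-43601812, minus strand: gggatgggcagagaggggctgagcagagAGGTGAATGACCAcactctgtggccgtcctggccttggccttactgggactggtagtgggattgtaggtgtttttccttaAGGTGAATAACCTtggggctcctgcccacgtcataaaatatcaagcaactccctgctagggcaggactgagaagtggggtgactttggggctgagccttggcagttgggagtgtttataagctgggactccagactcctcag
The Fabp6 window held 2 matches to the FXR site, each with 2 mismatches, at 222 to 210 and at 142 to 130 bases before the start. No other member had such a match, and 1.14% of all 32851 windows did. The LRH-1 site was in 0 of the 7 windows and in 0.423% of all. These are matches of letters, and binding was not measured.

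Fabp6, the cytosolic bile acid binder of the ileum, was by far the most abundant of the 9 genes. The gene (ENSMUSG00000020405.4 in GENCODE M21) spans 43596049 to 43601540 of chromosome 11 in GRCm38, on the minus strand, and its 4 exons give a short transcript of 479 nucleotides. Fabp6 had 1477, 1290, 1903, 2673, 1856 and 2155 TPM in replicates 1 to 6, averaging 1892 ± 493 TPM (SD, n = 6). The libraries spanned 2.07-fold, and in each one Fabp6 stood between percentiles 99.5 and 99.8 of the genes listed above 0. It alone made up 81.3% to 85.9% of the summed TPM of the set. Set beside genes that define tuft cells, Fabp6 was 1.69 to 4.56 times Dclk1 in the same library and 0.952 to 2.40 times Trpm5, which it exceeded in 5 of 6 libraries.

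Slc10a2, the apical sodium-dependent importer that supplies FABP6 with its ligand, was low and variable. The gene (ENSMUSG00000023073.2) has 6 exons and spans 5083219 to 5105351 of chromosome 8 on the minus strand. Its level was 8.08, 1.26, 2.86, 7.67, 19.9 and 27.9 TPM in replicates 1 to 6, averaging 11.3 ± 10.4 TPM (SD, n = 6) with a span of 22.1-fold. Replicates 5 and 6 were the highest and replicate 2 the lowest. Between genes, Fabp6 exceeded Slc10a2 in 6 of 6 libraries, by 7.74 ± 1.25 on the log2(TPM + 1) scale (SD, n = 6; exact permutation by sign flips, two-sided, p = 0.03125, adjusted p = 0.0402). The ratio of their TPM ranged from 77.3 in replicate 6 to 1024 in replicate 2. The difference was 8.48 ± 0.99 within replicates 1 to 3 and 6.99 ± 1.12 within replicates 4 to 6 (SD, n = 3 each).

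The basolateral exporter genes were present at overlapping levels. Slc51a (chromosome 16, 32474504 to 32487879, minus strand, ENSMUSG00000035699.8) had 61.4, 59.7, 128, 159, 87.8 and 81.0 TPM in replicates 1 to 6, a mean of 96.3 ± 39.6 TPM (SD, n = 6). Slc51b (chromosome 9, 65412714 to 65422955, minus strand, ENSMUSG00000053862.6) had 84.4, 96.7, 93.3, 171, 137 and 122 TPM, a mean of 118 ± 32.9 TPM (SD, n = 6). The encoded subunits work only as a pair, and their transcripts overlapped in range and were both highest in replicate 4. Slc51b was the higher in 5 of 6 libraries, by 0.34 ± 0.44 on the log2 scale, and the exception was replicate 3 (ratio of Slc51b to Slc51a, 0.727 there and at most 1.62 elsewhere). This difference did not pass the threshold (exact permutation by sign flips, p = 0.125, adjusted p = 0.141). Both exporter genes exceeded the importer gene Slc10a2 in every library, Slc51a by 3.40 ± 1.48 and Slc51b by 3.74 ± 1.26 on the log2 scale (exact permutation by sign flips, adjusted p = 0.0402 each). Exons of Slc51a share 567 bases with Pcyt1a (mean 12.2 TPM) and those of Slc51b share 91 bases with Rasl12 (mean 0.402 TPM), each on the opposite strand. The strand setting of the counting is not given in the sources used here, so reads of these bases cannot be assigned to one gene.

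**Figure D1:**
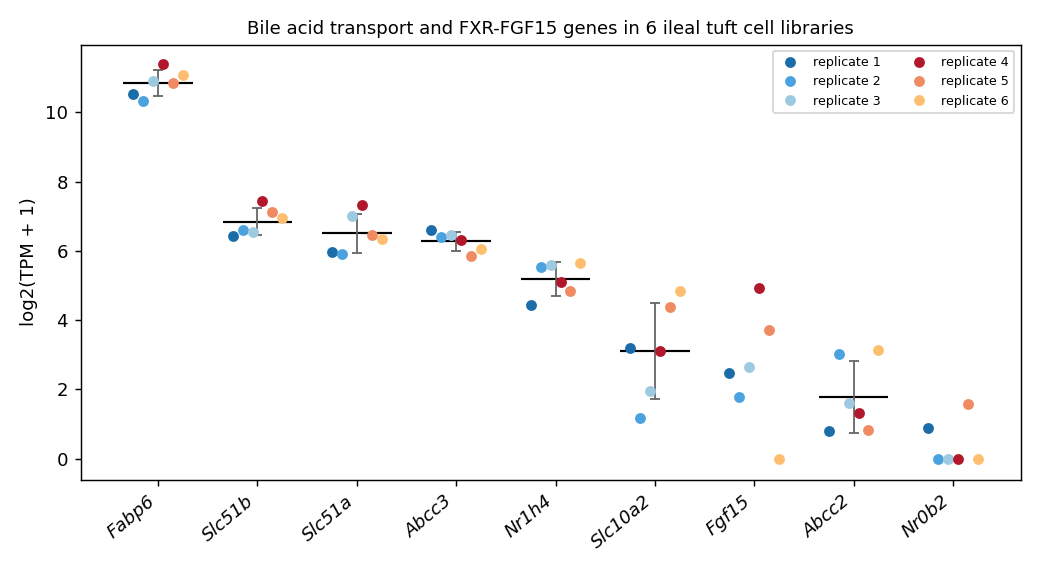
Level of each of the 9 genes, as log2(TPM + 1), in the 6 libraries (points, coloured by replicate), ordered by mean TPM. Lines are means and bars the SD over 6 libraries, drawn only for genes above 0 in every library. Fabp6 lies above all other genes in every library, and Slc10a2, Fgf15 and Abcc2 spread the most among genes above 0 in 5 or more libraries.

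Of the organic anion exporters, the basolateral one dominated. Abcc3 (chromosome 11, 94343295 to 94392997, minus strand, ENSMUSG00000020865.16) had 95.3, 83.8, 86.3, 78.3, 56.7 and 64.8 TPM in replicates 1 to 6, a mean of 77.5 ± 14.3 TPM (SD, n = 6). It was the steadiest gene of the set, with a 1.68-fold span. Abcc2 (chromosome 19, 43782192 to 43840740, plus strand, ENSMUSG00000025194.5), the apical exporter, had 0.74, 7.07, 2.07, 1.5, 0.77 and 7.86 TPM, a mean of 3.34 ± 3.25 TPM (SD, n = 6). Only replicates 2 and 6 passed 3 TPM for this gene. Abcc3 was higher in 6 of 6 libraries, by 4.49 ± 1.10 on the log2 scale (exact permutation by sign flips, p = 0.03125, adjusted p = 0.0402), or 8.25 to 129 times in TPM. Within replicates 1 to 3 the difference was 4.67 ± 1.21 and within replicates 4 to 6 it was 4.30 ± 1.22 (SD, n = 3 each).

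Nr1h4, which encodes FXR itself, was present in every library at a middle level. The gene (ENSMUSG00000047638.15; chromosome 10, 89454234 to 89533585, minus strand) had 20.6, 45.1, 46.9, 33.7, 27.9 and 49.7 TPM in replicates 1 to 6, a mean of 37.3 ± 11.7 TPM (SD, n = 6). Replicate 1 was the lowest and replicate 6 the highest. The obligate partners of FXR were lower in every library, with Rxra at 6.54 ± 2.51 TPM and Rxrb at 10.6 ± 4.20 TPM (SD, n = 6 each), while Rxrg was listed above 0 in 2 libraries and did not pass 0.11 TPM. Nr1h4 was 3.50 to 10.4 times Rxra and 1.41 to 12.3 times Rxrb in the same library.

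The FXR targets of feedback control did not share the level of the transport targets. Nr0b2 (chromosome 4, 133553376 to 133556536, plus strand, ENSMUSG00000037583.2), whose product SHP represses bile acid synthesis genes, was listed above 0 in replicate 1 (0.84 TPM) and replicate 5 (1.99 TPM) alone, and at 0 in the other 4 libraries. Fgf15 (chromosome 7, 144896531 to 144900953, plus strand, ENSMUSG00000031073.6) had 4.54, 2.45, 5.29, 29.4 and 12.2 TPM in replicates 1 to 5 and was listed at 0 in replicate 6. Replicates 4 and 5 were thus the highest for Fgf15, and replicate 6, where it was listed at 0, had the highest Slc10a2, Nr1h4 and Abcc2 of the 6. Nr1h4 exceeded Nr0b2 in 6 of 6 libraries, by 4.79 ± 1.08 on the log2 scale (exact permutation by sign flips, p = 0.03125, adjusted p = 0.0402). Fgf15 exceeded Nr0b2 in 5 of 6 libraries, with both at 0 in the sixth, and the difference of 2.18 ± 1.61 did not pass the threshold (exact permutation by sign flips, p = 0.0625, adjusted p = 0.0776). Against a gene listed at 0 these differences depend on the pseudocount of 1. By an exact Mann-Whitney test, which does not pair genes within a library, its adjusted p was 0.026. Fgf15 exons overlap 761 bases of Gm26793 on the opposite strand, a gene that the table does not list by that symbol.

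**Figure D2:**
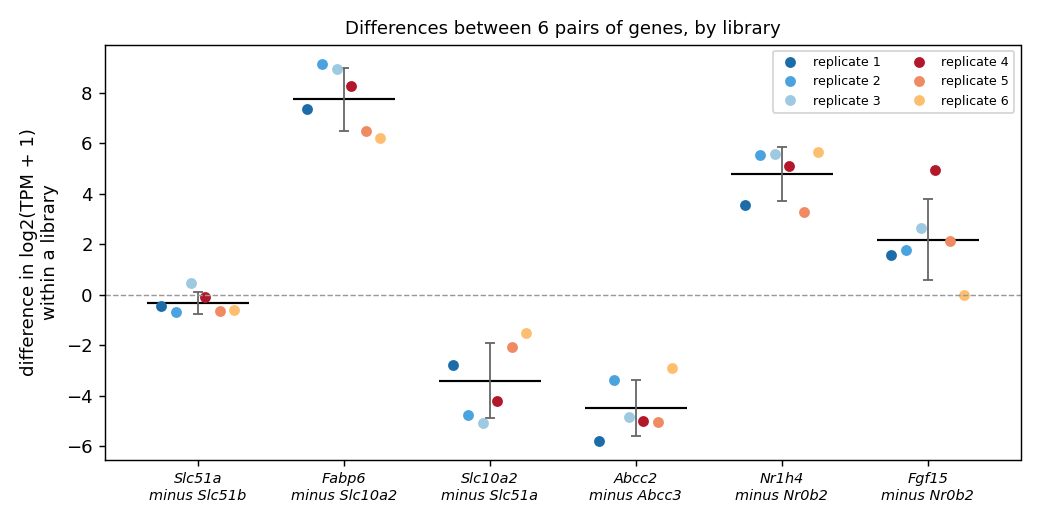
Difference in log2(TPM + 1) between the genes of 6 pairs with related roles, within each of 6 libraries (points, coloured by replicate). Lines are means, bars the SD over 6 libraries and the dashed line marks equal levels. Points of 4 pairs lie on 1 side of 0 in all libraries, while Slc51a minus Slc51b crosses 0 in replicate 3 and Fgf15 minus Nr0b2 is 0 in replicate 6.

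In order of mean TPM the genes were Fabp6, Slc51b, Slc51a, Abcc3, Nr1h4, Slc10a2, Fgf15, Abcc2 and Nr0b2. All 36 pairs were compared within libraries, with p-values adjusted over the 36 by the Benjamini-Hochberg method. In 28 pairs one gene was higher in 6 of 6 libraries, and these 28 passed the threshold, each with p = 0.03125, the smallest that 6 libraries allow in an exact permutation by sign flips, and adjusted p = 0.0402. Their direction was thus the same within replicates 1 to 3 and within replicates 4 to 6. Fabp6 exceeded all 8 other genes, and the 4 genes from Slc51b to Nr1h4 in that order each exceeded Slc10a2, Fgf15, Abcc2 and Nr0b2. Of the 8 neighbours in the order, 3 passed the threshold, namely Fabp6 and Slc51b, Abcc3 and Nr1h4, and Nr1h4 and Slc10a2. The ranges of Nr1h4 and Slc10a2 over the libraries overlapped (difference 2.09 ± 1.58 on the log2 scale, SD, n = 6). Without replicate 6, Fgf15 (mean 10.8 TPM) came before Slc10a2 (mean 7.95 TPM) in the order. Slc51b, Slc51a and Abcc3 were not separated from each other within libraries (adjusted p = 0.1125 to 0.463, exact permutation by sign flips), although Slc51b against Abcc3 passed by the exact Mann-Whitney test (adjusted p = 0.0188), as did Abcc2 against Nr0b2 (adjusted p = 0.0402). The order among Slc10a2, Fgf15 and Abcc2 varied from library to library (adjusted p = 0.170 to 0.719, exact permutation by sign flips). A p above the threshold does not show that these genes had equal levels.

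Of the 9 genes, 7 were above 0 in all libraries and 8 had a mean of at least 1 TPM, against 47.2% and 51.4% of the whole table. Their median of mean TPM was 37.3, against 7.67 over the 15707 genes above 0 in any library. The median SD on the log2(TPM + 1) scale was 0.56 over the members and 0.51 over those 15707 genes.

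The members were not all highest in the same library. Fabp6, Slc51a, Slc51b and Fgf15 were highest in replicate 4, as were 13.9% of all genes above 0 in any library. Replicate 6 was the highest for Slc10a2, Nr1h4 and Abcc2 (12.4% of all genes), replicate 5 for Nr0b2 (12.4%) and replicate 1 for Abcc3 (19.5%). No member was highest in replicate 2 (20.3%) or replicate 3 (21.5%). Over the 36 pairs, Pearson correlations of log2(TPM + 1) across the 6 libraries ran from -0.75 to 0.85, and none passed the threshold after adjustment over the 36 (smallest adjusted p = 0.686, exact permutation over 720 pairings), while 2 had an unadjusted p under it. The first was Fabp6 with Slc51a (Pearson r = 0.85, exact permutation p = 0.0375; Spearman rho = 0.83, exact p = 0.0583). Without the 2 libraries farthest from the median of Fabp6 its r was 0.54, and centred within replicates 1 to 3 and 4 to 6 it was 0.91 (exact p = 0.0833). The second was Nr1h4 with Abcc2 (r = 0.82, exact permutation p = 0.0403; rho = 0.94, exact p = 0.0167), with r = 0.69 without the 2 farthest libraries and 0.82 centred (exact p = 0.111). The importer Slc10a2 and the binder Fabp6 had r = 0.51 over all libraries and -0.23 after centring (exact permutation p = 0.322 and 0.667, n = 6). With 720 pairings, a pair standing alone could not pass the adjustment over the 36, however close its relation. That none passed thus does not show that the genes were unrelated.

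Slc51b was higher in every library of replicates 4 to 6 than in replicates 1 to 3 (143.6 ± 25.2 against 91.5 ± 6.33 TPM; SD, n = 3 each), as were 3.16% of all genes. Abcc3 was lower in all of replicates 4 to 6 (66.6 ± 10.9 against 88.5 ± 6.06 TPM), as were 10.4% of all genes. Which of the members separated depended on the scaling. After median-of-ratios rescaling or without Rn45s and Gm20594, Slc51b remained apart and Fabp6 and Slc10a2 were also higher in all of replicates 4 to 6, as were 5.47% and 5.24% of all genes under the respective rescaling. Abcc3 was then no longer apart. The labels give no batch, and 3 libraries against 3 cannot reach p = 0.05 in an exact test. The part of Gm20594 and of Rn45s in these differences was not tested.

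**Figure D3:**
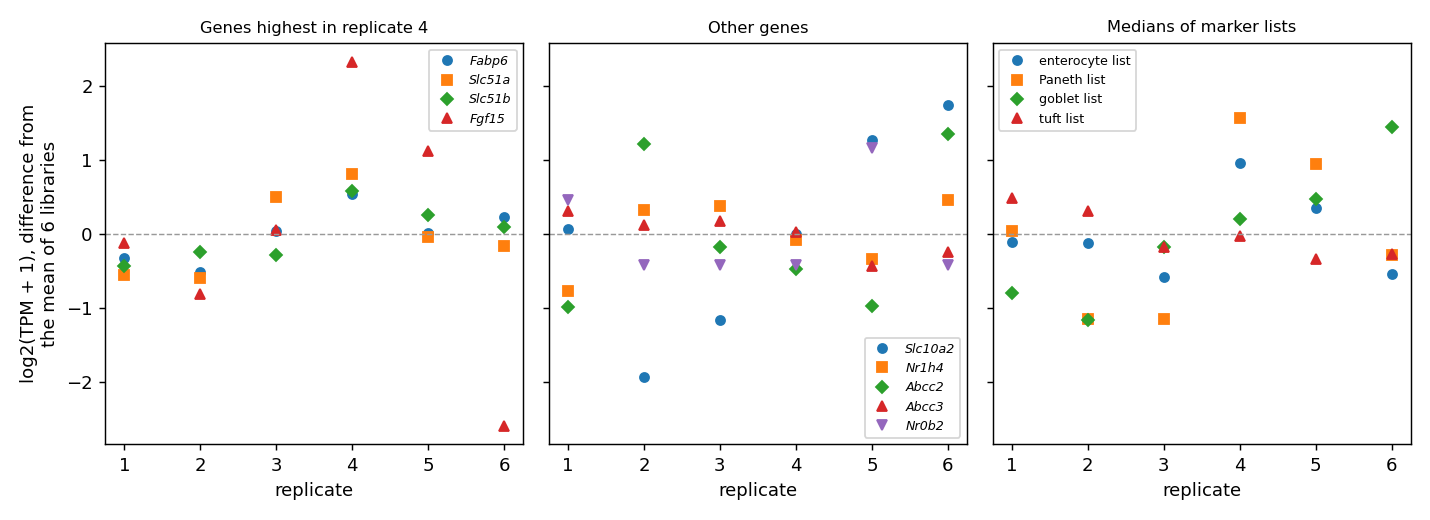
Deviation of log2(TPM + 1) from its mean over the 6 libraries, by replicate, for the 4 genes highest in replicate 4 (left), the other 5 genes (middle) and the medians of 4 marker lists (right). Fgf15 and the enterocyte and Paneth lists peak in replicate 4, whereas Slc10a2 and the goblet list peak in replicate 6.

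Because these genes are known from enterocytes, each was set against the median log2(TPM + 1) of the 18 enterocyte markers, which was lowest in replicate 3 (5.02) and highest in replicate 4 (6.57), whereas their summed TPM was highest in replicate 1. Of the 9 members, 6 had a positive correlation with it, against 43.6% of the 15689 genes tested. Fgf15 alone had an unadjusted p under the threshold (Pearson r = 0.84, exact permutation p = 0.0403; Spearman rho = 0.66, exact p = 0.175; n = 6), a level that 1.66% of all genes reached with a positive r and 2.52% with a negative r. No member and no other gene passed after adjustment over all 15689 (smallest adjusted p = 0.838, and 0.996 for Fgf15, exact permutation). The libraries allow so few pairings that a gene standing alone could not pass this adjustment, however close its relation. That none passed thus does not show that the members were unrelated to the enterocyte list. For Fgf15, leaving out replicates 3 and 4, whose list values were the most extreme, gave r = 0.98, and centring within replicates 1 to 3 and 4 to 6 gave 0.87 (exact p = 0.222). Fabp6, with r = 0.43 (exact permutation p = 0.399; rho = 0.14, exact p = 0.803), had r = -0.23 without those 2 libraries and 0.09 centred. Slc51b had r = 0.75 (exact permutation p = 0.0806; rho = 0.60, exact p = 0.242), and Nr1h4 had r = -0.44 (exact permutation p = 0.389; rho = -0.71, exact p = 0.136). Markers of other cells moved across the same libraries. Paneth cell markers were highest in replicate 4 (summed level 26976 TPM) and the goblet cell sum in replicate 6 (4318 TPM). Clca1 alone of the goblet list went the other way and was lowest in replicate 6 (0.16 TPM). Over the 54 relations of the 9 members with the other 6 lists, 1 had an unadjusted p under the threshold and 0 passed after adjustment over the 54 (smallest adjusted p = 0.75, exact permutation). A relation standing alone could not pass this adjustment either, however close it was. That none passed thus does not show that the members were unrelated to these lists. The relation under the unadjusted threshold was Slc10a2 with the goblet list (r = 0.85, exact permutation p = 0.0389; rho = 0.83, exact p = 0.0583), with r = 0.47 without the 2 farthest libraries and 0.55 centred (exact p = 0.361). Slc51b with the Paneth list had r = 0.81 (exact permutation p = 0.0639; rho = 0.60, exact p = 0.242), but 0.032 without the 2 farthest libraries and 0.48 centred. Abcc3 with the tuft list had r = 0.80 (exact permutation p = 0.0667; rho = 0.83, exact p = 0.0583), with 0.77 without the 2 farthest libraries and 0.56 centred. For Fabp6, r was 0.73 with the goblet list (exact permutation p = 0.0944; rho = 0.71, exact p = 0.136), with 0.65 without the 2 farthest libraries and 0.27 centred. How much of the RNA of the bile acid genes came from these cells was not tested.

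Outside the set, 2079 genes averaged 50 TPM or more, and among these the 5 whose pattern over the 6 libraries was most like that of Fabp6 were Stk25 (Pearson r = 0.97), Saa1 (0.96), Dgat1 (0.94), Defa-rs7 (0.94) and Emc4 (0.93). These were picked as the highest of 2079 and carry no test. Saa1, an acute phase protein gene, ran from 9.60 TPM in replicate 1 to 156 TPM in replicate 4, and Dgat1, which completes triglyceride synthesis, from 44.4 TPM in replicate 2 to 96.7 TPM in replicate 4.

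Within its family, Fabp6 was the second most abundant fatty acid binding protein gene in every library. Fabp1, the liver-type protein that enterocytes also make, had 7410 ± 3269 TPM (SD, n = 6), and Fabp6 was 0.115 to 0.439 times its level. Replicates 1 and 2 had the lowest ratios, where Fabp1 was highest. Fabp2, the intestinal-type protein, had 631 ± 345 TPM and was exceeded by Fabp6 in 6 of 6 libraries, by 2.22 to 8.32 times. Fabp5 followed at 88.6 ± 73.5 TPM, and Fabp3 was listed above 0 in 3 libraries, at most at 4.06 TPM. Fabp4, Fabp7 and Fabp9 were listed at 0 in all libraries and Fabp12 did not pass 0.61 TPM.

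Slc10a2 did not lead its family in every library. The orphan member Slc10a3 had 12.8 ± 6.17 TPM (SD, n = 6) and exceeded Slc10a2 in 4 of 6 libraries, all but replicates 5 and 6. Slc10a7 had 5.44 ± 3.33 TPM, and Slc10a1, the bile acid importer of hepatocytes, 1.78 ± 1.13 TPM (SD, n = 6 each). Slc10a5 was listed at 0 to 6.72 TPM, and Slc10a4 and Slc10a6 at 0 in every library. Abcc3, by contrast, was the most abundant of the ABCC genes compared in 6 of 6 libraries, at 2.10 to 9.51 times Abcc5 (18.0 ± 7.21 TPM) and 2.21 to 9.15 times Abcc10 (16.8 ± 5.95 TPM). Abcc1 (7.68 ± 5.36 TPM), Abcc4 (3.90 ± 1.11 TPM) and Abcc8 (3.53 ± 1.33 TPM; SD, n = 6 each) were lower, Abcc6 and Abcc9 had means under 1 TPM, and Abcc12 was listed at 0.

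**Figure D4:**
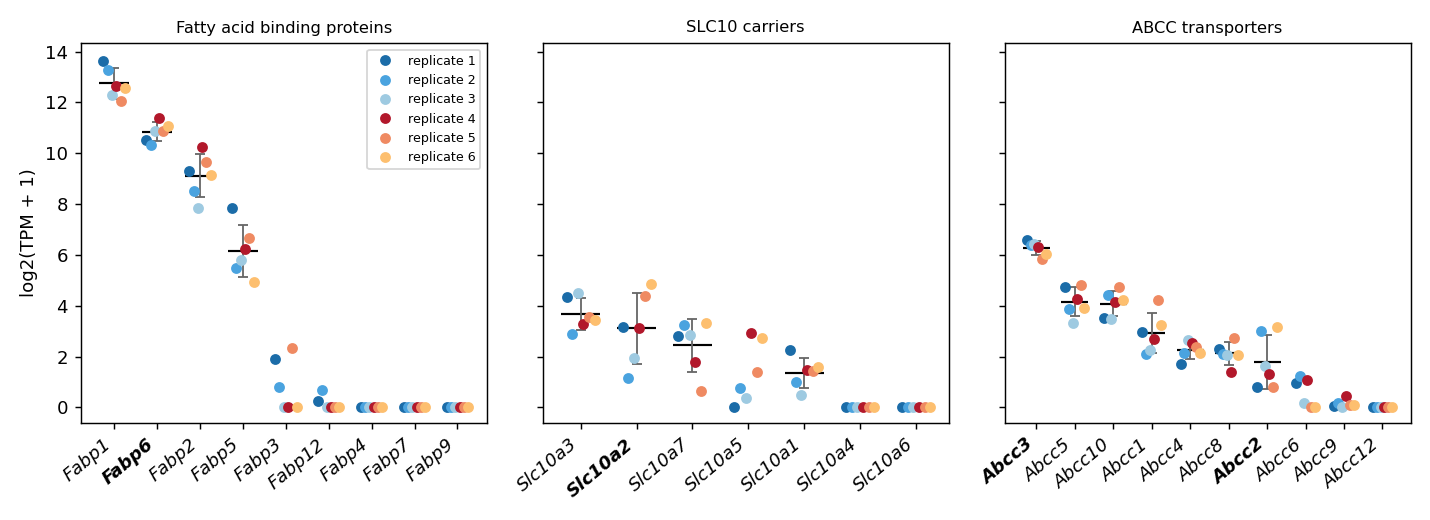
Levels of the fatty acid binding protein, SLC10 and ABCC genes, as log2(TPM + 1), in the 6 libraries (points, coloured by replicate), with the members of the set in bold. Lines and bars are the mean and SD over 6 libraries for genes above 0 in every library. Fabp6 lies between Fabp1 and Fabp2, Slc10a2 overlaps Slc10a3 and Slc10a7, and Abcc3 lies above the other ABCC genes shown.

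A list of 31 further bile acid genes, of which 30 were found in the table (all but Malrd1), placed the set in its pathway. Of the 30, 19 had a mean of at least 1 TPM, as did 51.4% of the whole table. Listed at 0 in every library were 5 of them, while 15707 of the 23420 genes of the table were above 0 in any library. The median of mean TPM was 4.81 over the 30, zeros included, and 7.67 over those 15707 genes. Among other receptors of bile acids, Vdr, the vitamin D receptor that also binds lithocholic acid, had 78.0 ± 16.0 TPM (SD, n = 6) and exceeded Nr1h4 in 6 of 6 libraries. Nr1i2, the xenobiotic receptor PXR, had 13.1 ± 4.76 TPM. S1pr2 was listed at 0 to 2.86 TPM. Gpbar1, the cell surface bile acid receptor TGR5, reached 0.48 TPM in replicate 1 and 2.32 TPM in replicate 2 and was listed at 0 in the others, and Nr1i3 was above 0 in those 2 libraries only.

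Of the transcription factors in the list, Hnf4a (134 ± 20.5 TPM) and the intestinal identity factor Cdx2 (41.9 ± 4.83 TPM) were the most abundant (SD, n = 6 each). Gata6 had 14.4 ± 2.5 TPM, the small Maf factor gene Mafg 8.24 ± 4.70 TPM and Nr5a2, which encodes LRH-1, 7.32 ± 2.84 TPM. Gata4, which keeps Slc10a2 low in the proximal intestine, had 2.93 ± 2.34 TPM. Fgfr4, the receptor of FGF15, had 5.72 ± 4.33 TPM, and its coreceptor gene Klb was listed at 0 in every library.

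The liver canalicular transporter genes Abcb11 and Abcb4 were at or near 0, with Abcb11 at 0 in all libraries and Abcb4 at 0.06 TPM in 1. The sterol exporter genes Abcg5 (50.2 ± 17.4 TPM) and Abcg8 (10.1 ± 3.40 TPM; SD, n = 6 each) were above 0 in every library, as were Slco2a1, a prostaglandin carrier gene (9.97 ± 3.56 TPM), and Abcc4 (3.90 ± 1.11 TPM). Slc51a, Slc51b and Abcc3 each exceeded Abcg5 in 6 of 6 libraries. Of 6 genes of bile acid synthesis and conjugation, Cyp27a1, the mitochondrial sterol 27-hydroxylase, had 24.8 ± 10.5 TPM (SD, n = 6) and was above 0 in every library. Cyp7a1, the rate-limiting enzyme of the classical pathway, was listed at 0.05 TPM in replicate 4 and at 0 elsewhere, Slc27a5 at 1.03 TPM in replicate 2 and at 0 elsewhere, and Cyp8b1, Cyp7b1 and Baat at 0 in every library.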

How the data were processed

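The authors mapped paired-end SMART-Seq2 reads to the mouse transcriptome (mm10, UCSC) using Bowtie, and the deposited TPM were computed by RSEM. Besides SMART-Seq2, the sample labels list 3' polyA RNA-seq, 10X Chromium and TopHat, which the methods do not describe. They also list DESeq2, which the methods name but which was not used here. Comparisons between genes take the preparation to be SMART-Seq2, as in the methods, and how another preparation would change the order of genes was not tested. Each of the 6 columns was matched to a replicate by its number and sums to 1000000 within rounding. Depth is unknown, so no counting interval was computed, and replicates are taken as separate mice as labelled.

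Genes were compared within libraries on log2(TPM + 1) by flipping the sign of each difference in all 64 ways (exact permutation, two-sided), with a threshold of 0.05. The study names the Mann-Whitney U test, which ignores the pairing and was run as an alternative. RSEM divides reads that fit several transcripts, and the TPM of a short transcript such as that of Fabp6 depends on the fragment length it assumes. Correlations used exact permutation over 720 pairings, or 36 within sets of libraries. For the enterocyte markers, the adjusted p-values given are over all genes tested rather than over the 9 members. Only the count of related members under the alternatives was planned with adjustment over the 9. Relations with the other marker lists were added after the data were seen and adjusted over those relations.

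Members, lists, pairs and motifs were chosen with earlier results of these data known. The genes named are the members, pathway and family genes averaging 1 TPM or more, the top 3 of each marker list by mean and the 5 most like Fabp6 among genes of at least 50 TPM, and genes listed under 1 TPM were named after their values were seen. Positions come from GENCODE M21 (GRCm38), the same assembly as mm10, and promoters from RefSeq. The permutation scan and rescaling were tested on simulated data. Tests ran in scipy 1.17.1 and numpy 2.4.6 under Python 3.11.15, with tables read by pandas 2.3.3 and plots drawn by matplotlib 3.10.9. The other assays of the study were not analysed here. Some listed genes are counted with their lists and not reported here by name.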

Additional observations from a re-analysis of the deposited data

How the results depend on the processing

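Under pseudocounts of 0.1 and 0.01, values under 0.1 TPM set to 0 and both rescalings, 28 pairs passed the threshold, and 31 did by the exact Mann-Whitney test. Since a pseudocount or a scaling acts alike on both genes of a library, it cannot change which gene is higher there. The Mann-Whitney test, which does not pair the genes, brought 3 pairs past the threshold, Fgf15 minus Nr0b2 (2.18), Slc51b against Abcc3 and Abcc2 against Nr0b2. With 5 libraries the smallest sign-flip p is 0.0625, so leaving out each library in turn gave 0 pairs past the threshold by construction. The differences then lay between 7.45 and 8.04 for Fabp6 minus Slc10a2, -3.78 and -3.07 for Slc10a2 minus Slc51a, -4.81 and -4.23 for Abcc2 minus Abcc3, 4.61 and 5.09 for Nr1h4 minus Nr0b2, 1.63 and 2.62 for Fgf15 minus Nr0b2, and -0.49 and -0.27 for Slc51a minus Slc51b. No paired analysis was possible because the 6 libraries form 1 group, so no groups share replicate numbers, and the sign-flip test pairs genes within a library, not groups.

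The count of members related to the enterocyte list, planned with adjustment over the 9 members, was 0 under every alternative run. With 5 libraries the smallest possible exact permutation p is 0.00833, and Fgf15 reached it without replicate 3 but did not pass after adjustment. A member alone could thus not pass with 5 libraries, and the counts without a library say nothing about stability. The correlations with that list moved with single libraries, between -0.35 (without replicate 4) and 0.65 for Fabp6, -0.38 (without replicate 4) and 0.80 for Slc51a, -0.12 (without replicate 3) and 0.53 for Slc10a2, -0.027 (without replicate 5) and 0.87 for Nr0b2 and -0.44 and 0.082 (without replicate 5) for Abcc3. Centring within replicates 1 to 3 and 4 to 6, chosen after the data were seen, turned r for Slc10a2 to -0.54 and for Abcc3 to 0.47. For Fgf15 the exact permutation p lost the threshold at a pseudocount of 0.1 (r = 0.73), without Rn45s and Gm20594 (0.76) with the mean of the list (0.52), centred (0.87) and without replicate 1, 2, 4, 5 or 6 (r from 0.67 without replicate 4 to 0.85). That of Slc51b passed it with the mean of the list (0.84) and without replicate 6 (0.91). The cause was not tested. Without Rn45s and Gm20594 every log2(TPM) rises by 0.41 to 0.69, and the means of 5 members moved by more than 1 SD (Fabp6 to 2783 TPM). Leaving out 1 library lowered the mean of Slc10a2 from 11.3 to 7.95 TPM (without replicate 6), of Fgf15 from 8.98 to 4.89 TPM (without replicate 4) and of Nr0b2 from 0.472 to 0.168 TPM (without replicate 5). Of 15 measures screened for a library far from the others, 0 passed the critical value of Dixon's ratio for 6 libraries (largest ratio 0.587, for Fgf15). Depth is unknown, so how far the zeros of Nr0b2 and Fgf15 reflect shallow sequencing cannot be given.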
